A study of Macaca fascicularis with 16 samples.

Results

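This report describes 10 genes of lymphocytes and of the chemokines that place lymphocytes in tissue, measured along the aorta of normal young cynomolgus monkeys (Macaca fascicularis). They are CD3E, CD3D and CD2 of T cells, CD79A, CD79B and MS4A1 of B cells, the receptor CCR7, and the ligands CCL19, CCL21 and CXCL13. The members are the rows of the count table whose NCBI GeneID carries 1 of these symbols, and all 10 were found among 32822 GeneIDs. RNA sequencing covered 16 libraries of untreated (baseline) aorta, 4 each from the ascending, descending, suprarenal and infrarenal regions, and the study asks how the infrarenal segment differs in NOTCH3 and elastic fibres. No gene was altered and no agent was given in any group. The labels number the libraries 1 to 4 within a region without saying that a number is an animal, so the p-values below measure the spread between these libraries, which may in part be technical. They also do not say which layers of the wall were taken.

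CD3E and CD3D are chains of the complex that passes on signals of the T cell receptor, and CD2 is an adhesion molecule of T cells and NK cells. CD79A and CD79B are the signalling chains of the B cell receptor, and MS4A1 encodes the surface protein CD20 of mature B cells. CCR7 guides naive and central memory T cells and mature dendritic cells toward its ligands CCL19 and CCL21. CCL21 is made by lymphatic endothelium and by stroma of lymphoid organs, CCL19 mainly by stroma and mature dendritic cells, and CXCL13 draws B cells with the receptor CXCR5 into follicles. In arteries, lymphocytes and lymphatic vessels lie mostly in the adventitia and the fat around it, and organised lymphoid tissue can form there in disease.

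The libraries held 14.4 to 21.41 (times 1e6) counts each, so 1 count was worth about 0.06 CPM in most libraries. CPM, the count of a gene scaled to a common library size, was computed with TMM factors, which adjust for overall differences of composition between libraries. The tissue label was met by its markers, since all 8 smooth muscle genes had counts in every library and MYH11, the smooth muscle myosin, ran from 2950 to 14100 CPM. In 3 libraries the composition stood apart, judged by the smooth muscle markers. Suprarenal replicate 3 and ascending replicate 4 had the lowest summed CPM of the 8 smooth muscle markers, at 14000 and 18100, and infrarenal replicate 1 the highest, at 57800, with the other 13 between 23000 and 37700. Infrarenal replicate 1 also had a scaling factor of 0.736 against 0.977 to 1.077 elsewhere. Infrarenal replicate 3, at 23000, was next lowest for smooth muscle. Its summed blood endothelial markers, 2810 CPM, exceeded the 1870 of ascending replicate 4. Its summed white adipocyte markers were 4900 CPM, against 235 to 956 in the other infrarenal libraries. It was not set apart, and no infrarenal mean or B cell share is given without it. Where 1 of these libraries carries a level or an order of regions, the value without it is given too. In bulk RNA, fewer cells of a type and less RNA per cell cannot be told apart.

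Over all libraries CCL21 had 3949 counts, CD79A 7, CXCL13 10, CCR7 15 and MS4A1 26, and counts of different genes are not levels per length. No member passed an adjusted p of 0.05 in edgeR's quasi-likelihood test in any comparison of regions. The filter on low counts kept 4 of the 10, namely CD3E, CD3D, CCL19 and CCL21. CD2, CD79A, CD79B, MS4A1, CCR7 and CXCL13 were too scarce for that test, and their counts are described without it. The same few libraries were high for many members. Suprarenal replicate 3 was the highest library of the series for 4 members and infrarenal replicate 3 for 3, while ascending replicate 4 led within its own region for 6 members and over the series for 1.

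**Figure D1:**
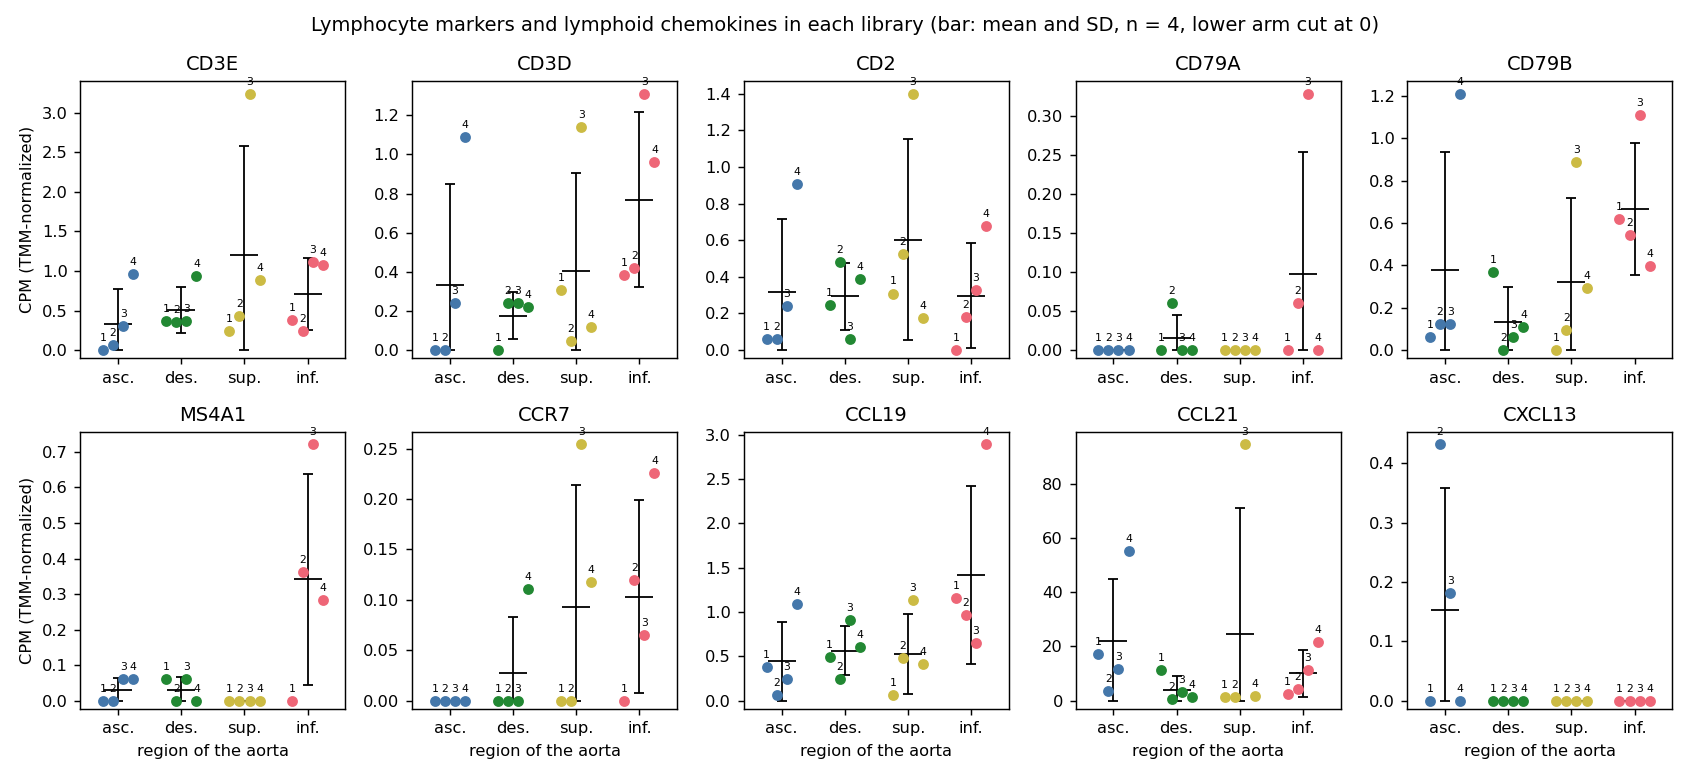
TMM-normalized CPM (y axis, 1 scale per gene) of the 10 members in the ascending, descending, suprarenal and infrarenal aorta (x axis), each point a library with its replicate number and each bar the mean and SD of 4 libraries. Suprarenal replicate 3 is the highest suprarenal library for CD3E, CD3D, CD2, CD79B, CCR7, CCL19 and CCL21, and MS4A1 exceeds 1 count only in infrarenal replicates 2, 3 and 4.

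Among the T cell markers, CD3E (GeneID 102133065) measured 0, 0.0617, 0.303 and 0.966 CPM in ascending replicates 1 to 4, and 0.367, 0.361, 0.364 and 0.942 CPM in the descending ones. It measured 0.247, 0.430, 3.24 and 0.886 CPM in suprarenal replicates 1 to 4, and 0.386, 0.241, 1.11 and 1.08 CPM in the infrarenal ones. Replicate 4 was the high library of the ascending and descending regions, replicate 3 of the suprarenal, and the ranges of the 4 regions overlapped. The suprarenal mean was 1.20 ± 1.38 CPM (SD, n = 4), followed by the infrarenal at 0.704 ± 0.455, the descending at 0.508 ± 0.289 and the ascending at 0.333 ± 0.442. Suprarenal replicate 3 held 51 of the 181 CD3E counts, and without it the suprarenal mean was 0.521 ± 0.329 CPM (SD, n = 3), below the infrarenal one. The difference of the regions at the ends of the order, suprarenal against ascending, was 1.81 on the log2 scale (SE 0.96, edgeR adjusted p = 1, 95% interval -0.23 to 3.85). It was 0.62 without suprarenal replicate 3 and 3.21 without ascending replicate 4.

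CD3D (GeneID 102133701) measured 0, 0, 0.242 and 1.09 CPM in ascending replicates 1 to 4 and 0, 0.241, 0.243 and 0.222 CPM in the descending ones. In the suprarenal libraries it measured 0.309, 0.0478, 1.14 and 0.118 CPM, and in the infrarenal ones 0.386, 0.421, 1.31 and 0.962 CPM. The lowest infrarenal library thus lay above the highest descending one, the only pair of regions without overlap for this gene, and all infrarenal libraries were also above 3 of the 4 suprarenal ones. The difference between infrarenal and descending was 2.08 (log2, SE 1.15, edgeR adjusted p = 0.433, 95% interval -0.36 to 4.52), with means of 0.770 ± 0.447 and 0.176 ± 0.118 CPM (SD, n = 4). Of all 15926 tested genes, 10.1% had no overlap between these 2 regions, so the separation of CD3D was not rare. The order below the infrarenal mean was suprarenal (0.404 ± 0.504 CPM), ascending (0.332 ± 0.516 CPM) and descending. Without suprarenal replicate 3 the suprarenal mean was 0.158 ± 0.135 CPM (SD, n = 3), and without ascending replicate 4 the ascending mean was 0.0807 ± 0.140 CPM, both below the descending mean. No neighbours in that order passed the test.

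CD2 (GeneID 102120798) did not pass the filter. It measured 0.0627, 0.0617, 0.242 and 0.905 CPM in the ascending libraries, 0.244, 0.482, 0.0607 and 0.388 in the descending, 0.309, 0.526, 1.40 and 0.177 in the suprarenal, and 0, 0.181, 0.328 and 0.679 in the infrarenal ones. Its region means ran from 0.294 ± 0.183 CPM in the descending to 0.602 ± 0.548 in the suprarenal region, and all ranges overlapped. Without suprarenal replicate 3 the suprarenal mean was 0.338 ± 0.176 CPM (SD, n = 3), and without ascending replicate 4 the ascending mean went from 0.318 to 0.122 ± 0.104 CPM. The libraries that led CD3E, suprarenal replicate 3 and ascending replicate 4, were also the highest for CD2 in their regions. CD3G, the remaining CD3 chain and a neighbour of CD3D, had 3, 2, 5 and 16 counts in all in the ascending, descending, suprarenal and infrarenal regions.

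Of the B cell markers, CD79B (GeneID 102145117) had 96 counts and did not pass the filter. It measured 0.617, 0.542, 1.11 and 0.396 CPM in infrarenal replicates 1 to 4, against 0.367, 0, 0.0607 and 0.111 CPM in the descending ones. All infrarenal libraries lay above all descending ones, by 0.396 against 0.367 CPM at the nearest. These 2 regions were also without overlap in 10.1% of the 15926 tested genes, which do not include CD79B. In the suprarenal region it measured 0, 0.0957, 0.888 and 0.295 CPM and in the ascending region 0.0627, 0.123, 0.121 and 1.21 CPM. Ascending replicate 4 was the highest library of the series, and without it the ascending mean fell from 0.379 to 0.102 ± 0.0344 CPM (SD, n = 3). The suprarenal mean likewise went from 0.320 to 0.130 ± 0.151 CPM without replicate 3. CD79B and CD3D were the members whose libraries did not overlap between infrarenal and descending aorta, and for no other pair of regions did any member separate. All libraries of those pairs were apart in 2.43% of tested genes for infrarenal against suprarenal, 7.19% for infrarenal against ascending, 1.8% for suprarenal against descending, 3.82% for suprarenal against ascending and 11.8% for descending against ascending.

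MS4A1 (GeneID 102118491) was counted mainly in the infrarenal aorta, in 0, 6, 11 and 5 counts in replicates 1 to 4, which is 22 of its 26 counts. The ascending libraries held 0, 0, 1 and 1 counts, the descending ones 1, 0, 1 and 0, and the suprarenal ones none. In summed counts relative to the summed TMM-scaled library sizes the infrarenal region was 11.5-fold above the ascending (95% interval 2.82 to 101) and 11.9-fold above the descending region (2.92 to 104). Against the suprarenal region, at 0, it was 8.18-fold higher, taking a floor of 3 counts over the group for the suprarenal region alone. The exact 95% lower limit, which also holds the counting error of the infrarenal counts, was 6.11-fold. These limits cover counting error only, and infrarenal replicate 1 had no count, so the regions overlapped between libraries. In an edgeR fit without the filter MS4A1 had an adjusted p of 0.18 for any difference among the regions (unadjusted p = 0.00475) and of 0.348 for infrarenal against suprarenal. The gene model of MS4A1 overlaps that of a long non-coding RNA, LOC123568791, in the annotation used for names, and since the strand of counting is not given in the sources used here, their reads may not be separable.

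CD79A (GeneID 102123895), the partner of CD79B, was counted in 3 libraries only, 5 times in infrarenal replicate 3 and once each in infrarenal replicate 2 and descending replicate 2. Its 7 counts allow no statement on regions. Other genes of the B cell line were also scarce in these libraries. PAX5, the transcription factor that maintains B cell identity, reached 0.852 CPM in infrarenal replicate 3, where CD79A and MS4A1 also peaked. CR2, the complement receptor of B cells and follicular dendritic cells, peaked in the same library, at 0.917 CPM. Both genes were picked after their values were seen.

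Set against each other, the 3 B cell markers made up different shares of the counts of the 6 lymphocyte markers. In the infrarenal region 69 counts were of B cell and 114 of T cell markers, a B cell share of 37.7% (95% exact Clopper-Pearson interval 30.7% to 45.2%). The share was 29.3% in the ascending (20.3% to 39.8%), 15.2% in the descending (8.1% to 25.0%) and 12.6% in the suprarenal region (7.96% to 18.6%). CD79B alone made up 41 of the 69 infrarenal B cell counts, 25 of 27 ascending, 9 of 12 descending and all 21 suprarenal ones. Infrarenal replicate 3 held 33 of the 69. By library it was 44.4%, 53.3%, 44.0% and 20% in infrarenal replicates 1 to 4, and 0%, 8.70%, 13.3% and 20% in the suprarenal ones, where the lowest infrarenal library met the highest suprarenal one. The descending libraries had 41.2%, 5.26%, 15.4% and 6.67%, and the ascending ones 50.0%, 50.0%, 18.8% and 30.0%. Without the libraries that stood apart the shares were 37.0% in the infrarenal (29.6% to 44.8%), 27.3% in the ascending (10.7% to 50.2%) and 11.3% in the suprarenal region (4.66% to 21.9%). The first pair of ascending values rests on 2 and 4 counts, so the shares of single libraries are coarse. The intervals treat counts as independent and leave out the spread between libraries, and no test of regions was made on this ratio, which was chosen after the values were seen.

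**Figure D2:**
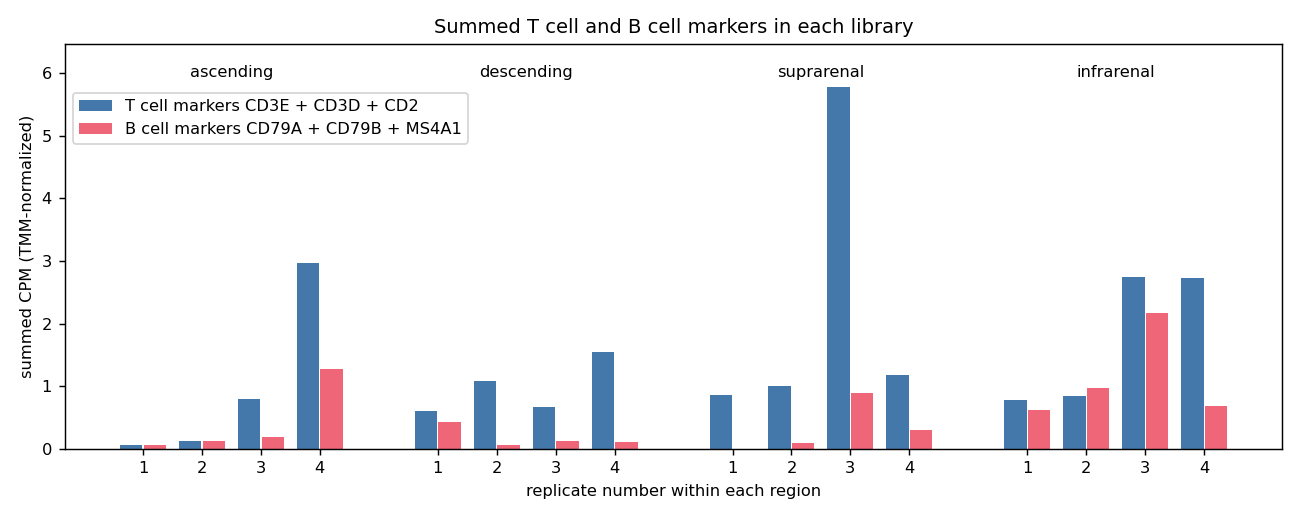
Summed TMM-normalized CPM (y axis) of the T cell markers CD3E, CD3D and CD2 and of the B cell markers CD79A, CD79B and MS4A1 in each of the 16 libraries (x axis, replicate number within each region). The T cell sum is highest in suprarenal replicate 3 at 5.77 CPM, and the B cell sum is highest in infrarenal replicate 3 at 2.16 CPM.

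CCR7 (GeneID 102137559) was close to the limit of detection. It had 2 counts in descending replicate 4, then 4 and 2 in suprarenal replicates 3 and 4, and 2, 1 and 4 in infrarenal replicates 2 to 4, with none in the ascending region. Against the ascending region, taken at a floor of 3 counts, the infrarenal region was 2.44-fold and the suprarenal 1.87-fold higher by the same measure. The exact 95% lower limits, with the counting error of both regions, were 1.5-fold and 1.1-fold. These leave out the spread between libraries. For CCR7 an edgeR fit without the filter gave an adjusted p of 0.807 for any difference. It gave 0.41 for infrarenal and 0.929 for suprarenal against ascending. Without suprarenal replicate 3 the suprarenal region held 2 counts of CCR7. CXCL13 (GeneID 102123271) showed the opposite placement. All its 10 counts were in the ascending region, 7 in replicate 2 and 3 in replicate 3. With the other regions taken at the same floor, the ascending region was 3.19-fold above the infrarenal, 3.56-fold above the suprarenal and 3.45-fold above the descending region. With the counting error of both regions, the exact 95% upper limits of the ratio to the ascending region were 0.466 in the infrarenal, 0.417 in the suprarenal and 0.431 in the descending region. The other ascending libraries, replicates 1 and 4, had no count, and an edgeR fit without the filter gave an adjusted p of 0.561 for any difference. Its receptor CXCR5 ran from 0 to 0.845 CPM, with the highest value in ascending replicate 4, where CXCL13 had no count.

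CCL21 (GeneID 102135349), a CCR7 ligand, varied most among the members tested. It measured 17.1, 3.64, 11.8 and 55.3 CPM in ascending replicates 1 to 4 and 11.3, 0.542, 3.15 and 1.22 CPM in the descending ones. It measured 1.42, 1.34, 94.5 and 1.83 CPM in suprarenal replicates 1 to 4 and 2.62, 4.39, 11.5 and 21.7 CPM in the infrarenal ones. Suprarenal replicate 3 alone held 1490 of the 3949 counts (37.7%), and with ascending replicate 4 the share was 60.9%. The 3 other suprarenal libraries lay between 1.34 and 1.83 CPM, among the lowest of the series, while the ascending libraries were all at or above 3.64 CPM. All pairs of regions overlapped.

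The region means of CCL21 were 24.8 ± 46.5 CPM (SD, n = 4) in the suprarenal, 22.0 ± 22.9 in the ascending, 10.1 ± 8.67 in the infrarenal and 4.05 ± 4.96 in the descending region. Suprarenal aorta against descending differed by 2.61 (log2, SE 1.36, 95% interval -0.29 to 5.51, edgeR adjusted p = 1), and descending against ascending by -2.44 (SE 1.36, adjusted p = 0.79), which was -3.74 without descending replicate 1 and -1.42 without ascending replicate 4. Removing 1 library changed the order. Without suprarenal replicate 3 the suprarenal mean was 1.53 ± 0.263 CPM (SD, n = 3), the lowest of the regions, and the difference against descending became -1.40 (SE 1.04, edgeR adjusted p = 1). The differences of the suprarenal region from the infrarenal and ascending regions also changed sign. Infrarenal against suprarenal went from -1.29 to 2.72 (adjusted p = 0.572) and suprarenal against ascending from 0.17 to -3.85 (adjusted p = 0.264).

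CCL19 (GeneID 102134983), the other CCR7 ligand and the genomic neighbour of CCL21, had 195 counts and was present in all 16 libraries. It measured 1.16, 0.963, 0.655 and 2.89 CPM in infrarenal replicates 1 to 4 and 0.376, 0.0617, 0.242 and 1.09 CPM in the ascending ones. In the descending libraries it measured 0.489, 0.241, 0.910 and 0.610 CPM, and in the suprarenal ones 0.0619, 0.478, 1.14 and 0.413 CPM. Infrarenal replicates 1, 2 and 4 lay above every library of the other regions except ascending replicate 4 and suprarenal replicate 3. The infrarenal mean, 1.42 ± 1.00 CPM (SD, n = 4), stood above the descending (0.562 ± 0.278), suprarenal (0.524 ± 0.451) and ascending means (0.442 ± 0.449), and the last 3 differed from each other by less than their SD. Without suprarenal replicate 3 that mean was 0.318 ± 0.224 CPM (SD, n = 3), and without ascending replicate 4 the ascending one was 0.227 ± 0.158.

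Infrarenal against ascending, the CCL19 difference was 1.67 (log2, SE 0.78, unadjusted p = 0.0498, edgeR adjusted p = 0.393). It was 1.43 (SE 0.77, adjusted p = 0.901) against suprarenal and 1.33 (SE 0.77, adjusted p = 0.457) against descending. Without infrarenal replicate 4, the library with the most CCL19, the 3 differences were 1.05, 0.81 and 0.71. The difference from the ascending region grew to 2.70 (SE 0.81, edgeR adjusted p = 0.045) when the 3 libraries of unusual composition (ascending 4, suprarenal 3 and infrarenal 1) were left out together, an alternative added after the data were seen. That was the single adjusted p under 0.05 for any member in any fit. Ascending replicate 4, left out there, was the highest ascending library for CCL19, at 1.09 CPM, and its removal by itself raises this difference. In the annotation used for names, PHF24 overlaps both CCL19 and CCL21. PHF24 ran from 0 to 2.82 CPM and was at 0 in ascending replicate 4, a high library for both chemokines.

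The 2 ligands of CCR7 did not keep a fixed ratio. For each count of CCL19 the ascending libraries held 45.5, 59.0, 48.8 and 50.9 counts of CCL21 in replicates 1 to 4. These rest on 6, 1, 4 and 18 counts of CCL19, and their 95% counting intervals ran from 20.6 to 125, from 10.2 to 2370, from 18.7 to 181 and from 32 to 86.3, so their closeness is within wide error. The descending libraries held 23.1, 2.25, 3.47 and 2, and the infrarenal ones 2.27, 4.56, 17.5 and 7.53, all below every ascending ratio, though the counting intervals of descending replicate 1 and infrarenal replicates 3 and 4 overlap ascending ones. The suprarenal libraries held 23, 2.80, 82.8 and 4.43, with replicate 3 the highest of the series. In summed counts the ratio was 49.8 in the ascending (95% counting interval 34.5 to 74.6), 43.7 in the suprarenal (31.4 to 62.6), 7.24 in the infrarenal (5.81 to 9.10) and 7.05 in the descending region (5.01 to 10.2). Without replicate 3 the suprarenal ratio was 4.56 (2.71 to 8.07), and without replicate 4 the ascending one was 47.9 (26.6 to 96.6). The ascending ratio therefore did not rest on its high library, while the suprarenal one did. This ratio of counts, which is not per length, was chosen after the values were seen and has no test.

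In the edgeR fit over 15926 genes, 0 of the 4 tested members were called for any difference among the 4 regions, beside 2.02% of all genes. The count was also 0 of 4 for infrarenal against suprarenal (0.201% of all genes), infrarenal against descending (1.65%), infrarenal against ascending (3.49%), suprarenal against ascending (0.257%) and descending against ascending (0.113%). For suprarenal against descending 0 genes of any kind were called (0%). At an unadjusted p under 0.05 there was 1 member, CCL19 in infrarenal against ascending, where 12.7% of all genes had such a p. In the other 6 comparisons it was 0 members, beside 9.61% of all genes for any difference, 5.76% for infrarenal against suprarenal and 13.8% against descending, 1.66% for suprarenal against descending, 5.5% for suprarenal against ascending and 6.74% for descending against ascending. DESeq2 and limma voom called 0 members as well. At an unadjusted p under 0.05 DESeq2 had 1 in infrarenal against ascending and 1 in suprarenal against descending, and voom 2 in infrarenal against ascending and 1 in infrarenal against suprarenal.

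**Figure D3:**
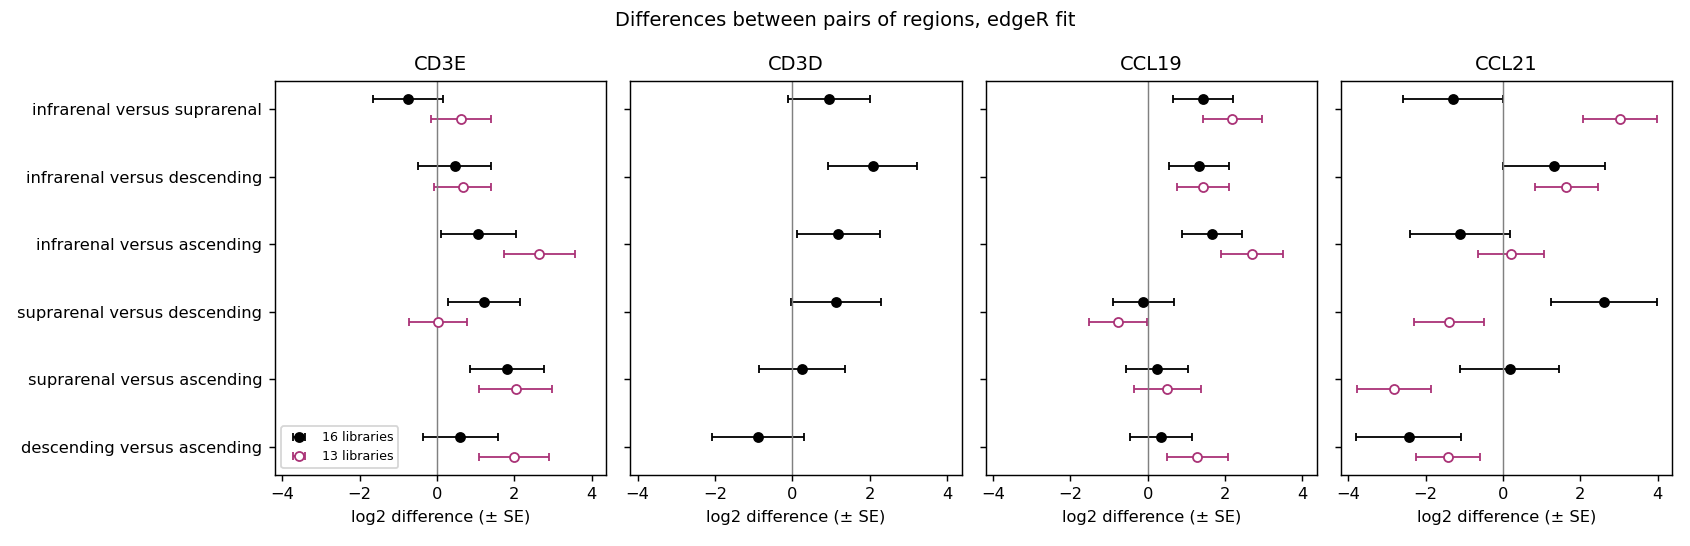
Log2 difference (x axis, ± SE) of CD3E, CD3D, CCL19 and CCL21 for the 6 pairs of regions (y axis) from edgeR, with all 16 libraries (filled points) and with the 3 libraries of unusual composition left out (open points). CD3D did not pass the filter in the smaller fit and has filled points only, and CCL21 in infrarenal against suprarenal moves from -1.29 to 3.03.

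The members varied strongly within regions. The biological coefficient of variation, the spread between libraries of one region beyond counting noise, was 1.14 for CCL21, 1.01 for CD3D, 0.84 for CD3E and 0.69 for CCL19, against a median of 0.31 over all tested genes. CCL21 lay at the 99.2nd percentile of tested genes, CD3D at the 98.6th, CD3E at the 96.6th and CCL19 at the 92.3rd. Scarce genes vary more in general, and the plot of spread against level sets each member beside genes of its own level.

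**Figure D4:**
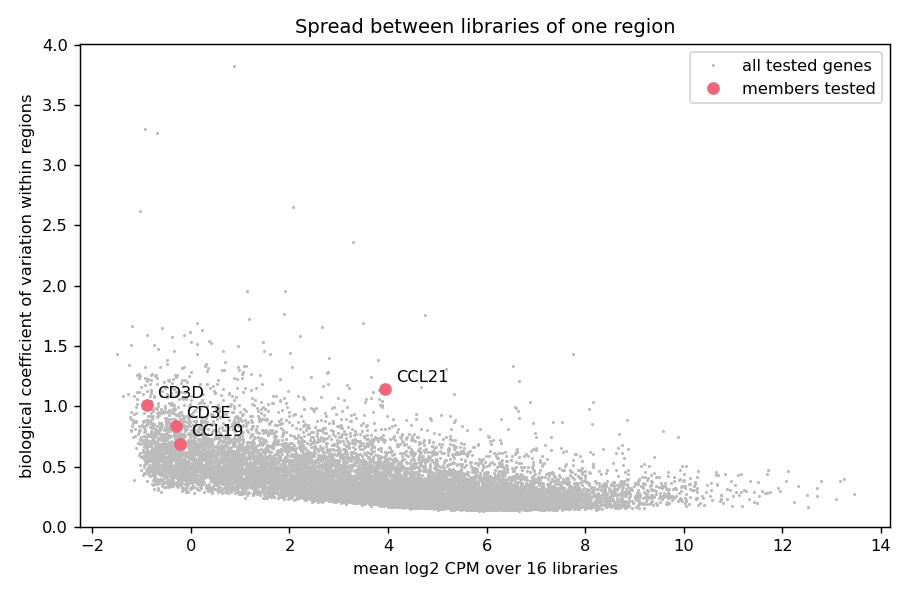
Biological coefficient of variation within regions (y axis) against mean log2 CPM over 16 libraries (x axis) for the 15926 tested genes (grey) and the 4 tested members (red). CCL21, at 1.14, lies high among genes of its level, and CCL19, at 0.69, lies within the cloud of scarce genes.

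High values fell in the same libraries. In the suprarenal region all 7 members with a count peaked in replicate 3, and in the ascending region 6 of 8 peaked in replicate 4. In the infrarenal region 5 of 9 peaked in replicate 3, the other 4 in replicate 4, and none in replicate 1. After region means were removed, CD3E and CD3D ran together over the 16 libraries with Pearson's r = 0.81 (Spearman's rho = 0.74, r = 0.62 without the 2 libraries farthest from the median). The 2 CCR7 ligands had r = 0.70 (rho = 0.61, r = 0.65 without those 2). CD3E with CCL21 had r = 0.67 (rho = 0.61), which dropped to 0.36 without the 2 farthest libraries, so that relation rests in part on them. These values are descriptions, since the genes of a library share its depth and its composition and libraries may share animals.

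Other cell types moved with these libraries. The summed CPM of 10 blood endothelial markers was 3190 in suprarenal replicate 3, 2810 in infrarenal replicate 3 and 1870 in ascending replicate 4, against 491 to 1450 in the other 13. All 10 had counts in every library. CD3E followed that sum with r = 0.84 (rho = 0.77, 0.64 without the 2 farthest libraries) and the summed smooth muscle markers with r = -0.78 (rho = -0.70, -0.55 without them). ACKR1, a chemokine-binding receptor of venular endothelium, measured 177 CPM in suprarenal replicate 3 and 96.4 in ascending replicate 4, against 7.42 to 57.5 CPM elsewhere. The part of these cell types in the levels of the members was not tested.

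CCL21 was set beside the 11 other lymphatic endothelial markers, all of which had counts and 9 of which had counts in every library. Their summed CPM, 323 to 601 over all libraries, did not follow CCL21 (r = -0.06). Other genes of the list than PROX1, LYVE1, MMRN1, FLT4 and PDPN made up most of that sum. In the ascending region these had means of 0.731, 14.2, 16.7, 5.32 and 8.62 CPM, where the sum was 362 to 536 CPM. The r of the sum therefore says little of these genes. Taken singly, 6 of the 11 had r above 0.5 with CCL21, 3 had r from 0 to 0.5 and 2, FOXC2 and SEMA3D, had r of -0.55 and -0.42. FLT4, the VEGF-C receptor of lymphatic endothelium, had r = 0.87 with CCL21 (rho = 0.87, 0.81 without the 2 farthest libraries), and PROX1, the transcription factor that specifies lymphatic endothelium, r = 0.78 (rho = 0.80, 0.70 without them). FLT4 was singled out after the values were seen, as the highest of the 11. PROX1 measured 8.76 CPM in suprarenal replicate 3 and at most 3.08 CPM elsewhere. FLT4 measured 31.0 CPM there and 13.6 CPM in ascending replicate 4, against 0.231 to 8.58 CPM in the others. CCL21 also ran against the smooth muscle sum (r = -0.83, rho = -0.82, -0.80 without the 2 farthest) and with the sum of 14 white adipocyte markers (r = 0.72, rho = 0.71, 0.60 without them). Fat was not alone in this. With marker sums of dendritic cells, blood endothelium and mast cells r was 0.84, 0.75 and 0.72 (0.80, 0.71 and 0.53 without the 2 farthest). With those of macrophages, mesothelium and nerve it was 0.36, 0.20 and -0.35. PDPN, a glycoprotein of lymphatic endothelium and mesothelium, was lower in infrarenal than in ascending aorta, with a log2 difference of -3.26 (SE 0.55, edgeR adjusted p = 0.00333), where CCL21 had no call. PDPN was the only 1 of the 11 lymphatic markers called there, beside 3.49% of all genes. Of the 11, 7 were higher in infrarenal aorta, with a median log2 difference of 0.19 (0.05 over all tested genes). The part of lymphatic vessels, fat or any other of these cell types in the CCL21 level was not tested.

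**Figure D5:**
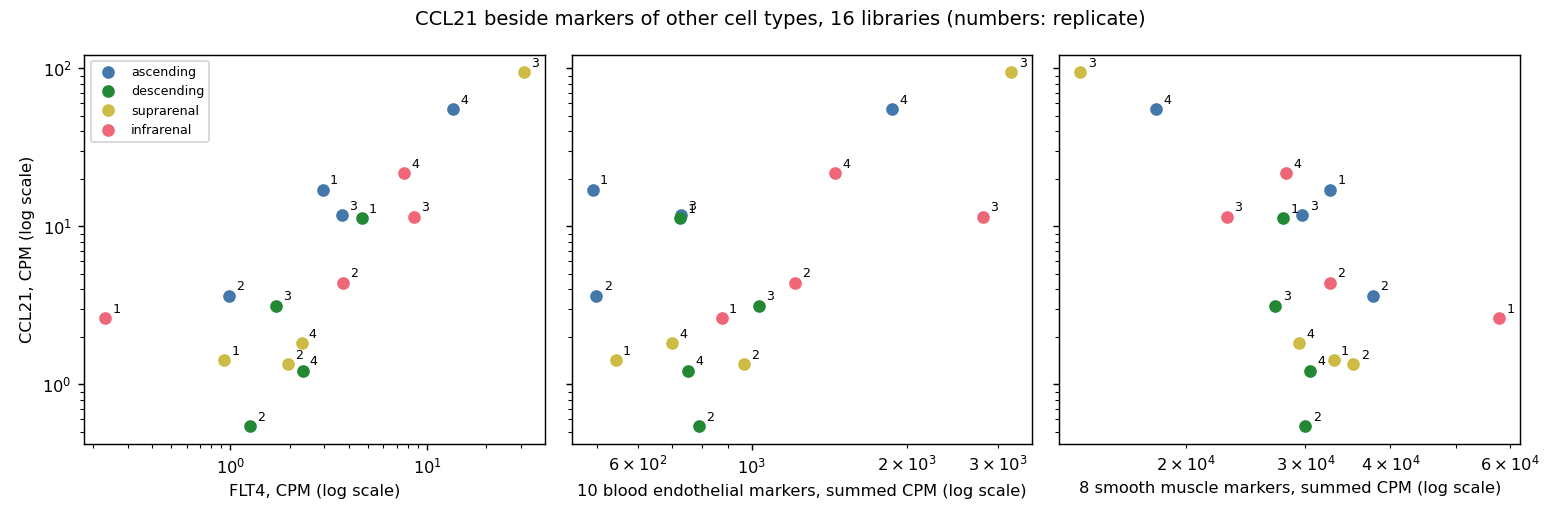
CCL21 (y axis, CPM, log scale) against FLT4, against the summed CPM of 10 blood endothelial markers and against the summed CPM of 8 smooth muscle markers (x axes, log scale) in 16 libraries, coloured by region and numbered by replicate. Suprarenal replicate 3 and ascending replicate 4 have the highest CCL21 and FLT4 (31.0 and 13.6 CPM) and the lowest smooth muscle sums (14000 and 18100 CPM).

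Further genes of the same pathways were read from lists. Of 30 other T cell genes, 14 were tested and 0 were called in edgeR in any of the 7 comparisons, with 1 at an unadjusted p under 0.05, in descending against ascending. The median log2 difference of the 14 was 0.38 for infrarenal against descending (0.02 over all tested genes), 0.22 against ascending (0.05) and -0.09 against suprarenal (0). Without the 3 libraries that stood apart, these medians over 15 genes were 0.35, 1.19 and 0.58 (0 over all tested genes in each). SKAP1, an adaptor of T cell receptor signalling, had the smallest p of the list for any difference (adjusted p = 0.764), followed by SIT1, TCF7, a transcription factor of naive T cells, and CD247, the zeta chain of the T cell receptor complex (adjusted p = 0.799, 0.853 and 0.856). In infrarenal against ascending 4 of the 15 rose in that fit, TCF7, GATA3 and CD6 among them, beside 13.2% of all genes called there and 7.12% called as higher. Ascending replicate 4, left out there, held 92.1 CPM summed over the list, against 33.5 to 40.4 in the other ascending libraries. Its removal by itself raises that difference. CD8A, the co-receptor of cytotoxic T cells, reached 2.92 CPM in suprarenal replicate 3, where CD3E also peaked, and at most 1.44 CPM elsewhere.

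Of 26 other B cell and plasma cell genes in the table, 13 were tested and 0 called by edgeR. At most 3 had an unadjusted p under 0.05, in each of suprarenal and descending against ascending. The median log2 difference of the 13 was -0.27 for infrarenal against ascending and -0.24 for infrarenal against suprarenal, beside 0.05 and 0 over all tested genes. Without the 3 libraries that stood apart these were -0.08 and 0.09 (0 over all tested genes), so the second changed sign. BLNK, an adaptor of B cell receptor signalling that macrophages also use, differed by 2.34 (log2, SE 0.70, edgeR adjusted p = 0.359) between descending and ascending. DESeq2 called it there, in suprarenal against ascending and for any difference, and voom did not. In each of these BLNK was the only 1 of the 13 that DESeq2 called, beside 177, 184 and 825 of 15926 tested genes. The next were JCHAIN, the joining chain of secreted antibodies, IRF4 and DERL3 (edgeR adjusted p = 0.482, 0.659 and 0.662 for any difference). JCHAIN measured 36.4 CPM in suprarenal replicate 3 and at most 2.17 CPM in the others, so the library richest in CD3E also held the most JCHAIN.

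Of 24 genes of cytotoxic lymphocytes and NK cells, 9 were tested and 0 called by edgeR, with at most 2 at an unadjusted p under 0.05, in suprarenal against ascending. There 8 of the 9 were higher and their median log2 difference was 1.07, beside 0.01 over all tested genes, and 0.93 over 8 genes without the 3 libraries that stood apart. NCAM1, which nerve and muscle also express, differed by -1.06 (log2, SE 0.32, edgeR adjusted p = 0.0912) between infrarenal and ascending, where DESeq2 called it and voom did not. It was the only 1 of the 9 that DESeq2 called there, beside 1004 of 15926 tested genes. CST7, GZMH and NKG7, all proteins of cytotoxic granules, had adjusted p of 0.78, 0.818 and 0.83 for any difference. Suprarenal replicate 3 was again the highest library for NKG7, at 2.03 CPM against at most 0.771 elsewhere. Without the 3 libraries that stood apart, CCL5, a chemokine of cytotoxic lymphocytes, rose and NCAM1 fell in infrarenal against ascending, 2 of 8 tested beside 13.2% of all genes.

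Of 41 other lymphoid chemokines, receptors and organisers in the table, 24 were tested and 0 called by edgeR, with at most 3 at an unadjusted p under 0.05, in infrarenal against ascending. The median log2 difference of the 24 was 0.06 there and 0.23 for infrarenal against descending, beside 0.05 and 0.02 over all tested genes, and without the 3 libraries that stood apart 0.27 and 0.13 over 23 genes (0 over all). TNFSF13B encodes BAFF, a survival factor of B cells, and had the smallest p of the list for any difference (adjusted p = 0.417). It differed by 1.59 (log2, SE 0.55, adjusted p = 0.164) in infrarenal against ascending. ACKR4, a scavenging receptor that removes CCL19 and CCL21, differed there by -1.22 (SE 0.37, edgeR adjusted p = 0.101), and DESeq2 called it. It was the only 1 of the 24 that DESeq2 called there, beside 1004 of 15926 tested genes. CXCR4 and ACKR3, both receptors of CXCL12, had adjusted p of 0.69 and 0.724 for any difference.

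Without the 3 libraries that stood apart, 9 of 23 tested genes of the chemokine list were called in infrarenal against ascending, 8 as higher, beside 13.2% of all genes called and 7.12% called as higher. S1PR1, VCAM1, LTB, IL7, TNFSF13B, TNFRSF11A and ICAM1 were among those that rose, and ACKR4 fell. Of these, VCAM1 and ICAM1 are adhesion molecules of activated endothelium, and LTB is a lymphotoxin subunit that organises lymphoid tissue. In the same fit 8 of 10 blood endothelial markers were called as higher, beside the same 7.12%, and the part of endothelium in these calls was not tested. That fit left out ascending replicate 4, whose sums for the chemokine list (1090 CPM) and blood endothelium (1870 CPM) were the highest of its region. Leaving out a high ascending library by itself raises infrarenal against ascending for the genes high in it, so these calls are no separate support.

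The genes most like each tested member were those with the highest r in log2 CPM over the 16 libraries after region means were removed. For CCL21 they were LOC102128706 (0.94), MMP15 (0.94), ADRA2A (0.94), EPHA2 (0.93) and KLF4 (0.93), and for CD3E they were TMEM44 (0.94), SEPTIN1 (0.94), RALB (0.94), FAM167B (0.93) and RIPOR1 (0.93). For CD3D they were PRSS55 (0.92), SLC20A1 (0.91), LOC102116308 (0.90), TRA2A (0.88) and TNFRSF10A (0.88). For CCL19 they were FADD (0.92), PLXNB2 (0.89), LOC102129652 (0.88), TBRG4 (0.85) and TTC12 (0.85). Among the 20 genes most like any member there were 0 other members. CD3E overlaps the gene models of MPZL2 and MPZL3 in the annotation used for names, and r with CD3E was 0.61 and 0.70 for them. MPZL2 measured 3.15 to 37.7 CPM and was highest in infrarenal replicate 3, while MPZL3 measured 0.802 to 7.3 CPM and was highest in suprarenal replicate 3, where CD3E also peaked. Whether reads of these genes entered the CD3E count was not tested.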

How the data were processed

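Total RNA of aorta was sequenced in 16 libraries. For each NCBI GeneID the authors deposited raw counts, made with fastp, HISAT2 (2.0.5) and featureCounts (1.5.0-p3), per the submitters' processing notes. Genome build, annotation and counting strand: not given in the sources used here. It was checked that the series table equals the 16 library files. Symbols and gene neighbours came from RefSeq's gene table for assembly MFA8v1.1, matching 24609 of 32846 rows, which hold 97.2% of the counts. The 24 rows of mitochondrial RNAs hold 0.057%.

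Genes were filtered with filterByExpr (minimum count 10, minimum total 15), scaled by TMM and tested with edgeR 4.0.16 (R 4.3.3), fitting 1 mean per region over all 16 libraries. Adjusted p-values (Benjamini-Hochberg, over 15926 genes) under 0.05 were called for 7 comparisons. Correlations used log2 CPM with a prior count of 2. Library pairs of a region differed by a chi-square of at least 27.5 per degree of freedom, so none was a repeat. The members and lists were chosen with earlier results of these data known. The rule names all 10 members, up to 4 genes a list with the smallest p for any difference, and the 5 genes most like each tested member, and other genes were picked after their values were seen. The lists cover other T cell, B cell and plasma cell, cytotoxic and chemokine genes. Marker lists cover smooth muscle, white adipocytes, lymphatic and blood endothelium, dendritic cells, mast cells, macrophages, mesothelium and nerve, among others. Alternatives were RLE size factors, library totals, other filters, DESeq2 1.42.0, limma 3.58.1 voom, a replicate block and each library left out. A fit without the 3 libraries that stood apart was added after the data were seen. Some genes of these lists are not reported here. The pipeline was tested on simulated data. Intervals of counts cover counting error only.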

Additional observations from a re-analysis of the deposited data

Results flagged for a closer look

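In 33 groups of 4 libraries of a member in a region, the library farthest from the rest was measured by Dixon's ratio, and 6 exceeded its 95% critical value, where chance flags about 1 in 20 groups. CCL21 in suprarenal replicate 3 was far above the other suprarenal libraries, at 94.5 CPM. CD79B in ascending replicate 4 was far above its region, at 1.21 CPM, and CD3E in descending replicate 4 above its own, at 0.942 CPM. CD3D in descending replicate 1 was flagged as low, at 0.0 CPM, among values that differ by few counts. CD79A in descending replicate 2, at 0.0602 CPM, and CCR7 in descending replicate 4, at 0.111 CPM, were flagged because the 3 other libraries were at 0, and they rest on 1 and 2 counts.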

How the results depend on the processing

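Of 651 values of the tested members under 24 other settings (CD3D could not be fitted in 2 of them and CCL19 in 1, for too few counts), 625 kept their direction and their side of the threshold, 25 changed sign and 1 crossed the threshold, and 0 of the 28 results had passed it. All 160 levels in CPM moved by no more than the SD of their region with library totals in place of TMM. This is a loose check. Those SDs are wide, as for CCL21 in the suprarenal region (46.5 CPM on a mean of 24.8), and a member at 0 throughout a region cannot move. Members called stayed at 0 except that, without the 3 libraries that stood apart, 1 (CCL19) was called in infrarenal versus ascending. In that fit CD3E changed sign for infrarenal versus suprarenal (0.62), and CCL21 did so for infrarenal versus suprarenal (3.03), infrarenal versus ascending (0.21), suprarenal versus descending (-1.39) and suprarenal versus ascending (-2.82). It called 1128 genes for any difference, and 241, 653, 2099, 113 and 141 for infrarenal versus suprarenal, descending and ascending, suprarenal versus ascending and descending versus ascending, against 322, 32, 263, 556, 41 and 18 with all libraries. In that order DESeq2 called 825, 167, 624, 1004, 184 and 177. Limma voom called 15 for infrarenal versus suprarenal and 9 for descending versus ascending, and reversed CCL21 for infrarenal versus suprarenal (0.93) and suprarenal versus ascending (-1.82) and CD3D for descending versus ascending (0.23). Infrarenal versus suprarenal gave 52 genes with library totals and 51 with no filter beyond 1 count. With a replicate block the counts were 532, 84, 432, 843, 76 and 62 in the same order, 0 members were called, and CCL21 for suprarenal versus ascending was -0.83. Deviations of same-numbered libraries correlated at -0.173 to 0.575, with 19 of 24 pairs over 0.1, and 15 of 16 libraries lay closest to their own number. Each pair at or below 0.1 included infrarenal replicate 1, ascending replicate 4 or suprarenal replicate 3. The numbers may thus pair the libraries, though the labels do not say so. The main fit used no block, so its p-values leave such a pairing out. The cause of these changes was not tested.

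Leaving out 1 library at a time gave 213 (without infrarenal replicate 2) to 477 (without infrarenal replicate 1) genes for any difference. The counts were 3 to 52 for infrarenal versus suprarenal, 132 to 326 for infrarenal versus descending, 345 to 1001 for infrarenal versus ascending, 19 to 66 for suprarenal versus ascending and 7 to 34 for descending versus ascending. Members whose sign changed had these log2 ranges. CD3E ran from -1.07 to 0.44 for infrarenal versus suprarenal. CD3D ran from -0.19 to 1.51 for suprarenal versus descending, from -1.09 to 2.18 for suprarenal versus ascending and from -1.31 to 1.05 for descending versus ascending. CCL19 ran from -0.79 to 0.25, from -0.46 to 1.18 and from -0.03 to 1.28 for the same 3 pairs. CCL21 ran from -2 to 2.72 for infrarenal versus suprarenal, from -1.40 to 3.91 for suprarenal versus descending and from -3.85 to 1.19 for suprarenal versus ascending. CCL21 for infrarenal versus suprarenal and suprarenal versus descending changed sign only without suprarenal replicate 3, and for suprarenal versus ascending also without ascending replicate 2 (-0.19) or 3 (-0.04).

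Depth limits what can be said of the scarce members: 1 count was about 0.06 CPM, and 6 of the 10 did not pass the filter. With wide intervals, the lack of a call does not show that a member is equal between regions. Lengths were not used, so counts and CPM of different genes are not levels per length, and reads of overlapping gene models were not separated here.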
